A study of Mus musculus with 8 samples.

Results

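Transcripts of immunoglobulin genes were followed in sorted regulatory T (Treg) cells, a T cell lineage that makes no antibody. The set was chosen by gene symbol alone. It holds every probe set whose annotated symbols all name a heavy, kappa or lambda variable segment (Ighv, Igkv, Iglv), a kappa joining segment (Igkj), a constant region (Ighm, Ighg, Igha, Igkc, Iglc) or Jchain. This gave 35 of 40541 distinct probe sets and 24 gene symbols. By class there were 15 Igkv, 7 Ighm, 3 Ighv, 2 Ighg (both Ighg3), 1 Igkj (Igkj1), 1 Iglv (Iglv1) and 1 Jchain probe sets, and 5 annotated with several immunoglobulin symbols. For Igha, Igkc and Iglc the number was 0, so the light chain constant regions and IgA were not measured.

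Treg cells came from C57BL/6J mice that carried a Foxp3-GFP reporter, which marks cells expressing the transcription factor that defines the Treg lineage. CD4+CD25+Foxp3+ cells were sorted to 98% purity from spleen and thymus of mice that lacked the miR-181a/b-1 microRNA cluster on both chromosomes (KO) or on 1 (HET), and HET mice served as the control. The deletion is in the germline, so every cell of the mouse carries it, B lineage cells included. Spleen KO, spleen HET, thymus KO and thymus HET were measured on 2 arrays each. Each array was hybridised with RNA of pooled young adult mice: pools KO1 and KO2 held 2 females and 1 male each, pool HET1 3 females and 1 male, and pool HET2 4 females and 1 male. The spleen and thymus arrays of 1 genotype and number came from the same pool, whereas KO and HET arrays of 1 number share only the number.

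All values are log2 intensities. Array medians lay between 4.59 and 4.71, and with so few arrays per group precision is limited. Background was judged from 1127 probe sets for olfactory receptors, genes of the sensory neurons of the nose: a probe set is called over the bound in a group when it exceeded, on both arrays, that array's 95th percentile of them (4.58 to 4.74). Foxp3 was measured at 10.86 and 10.79 in spleen KO, 10.96 and 10.94 in spleen HET, 11.10 and 11.13 in thymus KO, and 11.24 and 11.24 in thymus HET. Il2ra, Ctla4, Ikzf2, Tnfrsf18, Cd4, Cd3e, Cd3d, Cd3g and Cd5, further markers of the sorted cells, were likewise over the bound on all 8 arrays. The deleted cluster could not be checked, since its probe sets Mir181a-1 (1.81 to 2.57) and Mir181b-1 (2.26 to 3.44) were over the bound on 0 of the 8 arrays, HET included. Xist, which female cells transcribe from their silenced X chromosome, goes against the labelled pools. It was at 8.93 and 9.05 in spleen KO and 9.40 and 8.80 in thymus KO, but at 3.89 and 3.58 in spleen HET and 3.90 and 4.39 in thymus HET, under the bound on all 4 HET arrays although both HET pools are labelled as mostly female. The Y-linked Kdm5d was measured at 7.23 and 7.08 in spleen KO, 7.77 and 7.76 in spleen HET, 7.10 and 7.13 in thymus KO and 7.65 and 7.18 in thymus HET. Because every HET array is concerned, no comparison of KO with HET can be repeated without it, and the sex make-up of the pools and the genotype cannot be told apart.

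An antibody is built from a pair of heavy and a pair of light chains. In B cells a variable segment is joined to a joining segment (and, in heavy chains, a diversity segment) in front of a constant region, and the rearranged gene is transcribed strongly, most of all in plasma cells. Ighm encodes the mu constant region of IgM, Ighg3 the gamma constant region of IgG3, the Igkv and Igkj segments form the variable part of kappa light chains, and the J chain links IgM or IgA units into polymers. Heavy chain constant regions can also be transcribed from an unrearranged locus. In the mouse reference the heavy chain genes of the set lie on chromosome 12, between Ighg3 (chr12:113357442-113361232) and Ighv1-72 (chr12:115757984-115758277), the kappa genes on chromosome 6, between Igkv1-135 (chr6:67609745-67610508) and Igkj1 (chr6:70722562-70722599), Iglv1 on chromosome 16 (chr16:19085017-19085460) and Jchain on chromosome 5 (chr5:88519809-88527897; RefSeq, GRCm38.p6).

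The mature products of the deleted cluster are shown because they are what KO cells cannot make from this locus. They were taken from RefSeq, written 5′ to 3′, with the seed (bases 2 to 8, which pairs with target RNAs) in capitals. The seeds of both are identical, and the mature arms lie on the plus strand at chr1:137966468-137966490 (miR-181a) and chr1:137966650-137966673 (miR-181b) in GRCm38.p6. Another cluster elsewhere in the genome also encodes miR-181a and miR-181b.
mmu-miR-181a-5p: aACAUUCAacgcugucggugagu
mmu-miR-181b-5p: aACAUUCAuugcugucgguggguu

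Some immunoglobulin probe sets were over the bound in every group, and their highest values were concentrated in spleen HET. Over the bound were 14 of the 35 probe sets in spleen KO, 16 in spleen HET, 13 in thymus KO and 14 in thymus HET. The bound lay near each array's median of all probe sets, at 4.61 and 4.59 on spleen HET replicate 1. Being over it thus does not set a member above a typical probe set. On all 8 arrays 13 exceeded it, and 16 did so on none. With the 99th percentile as the bound, 7 probe sets in spleen KO, 11 in spleen HET, 7 in thymus KO and 5 in thymus HET were over it. The highest of the 8 arrays was a spleen HET array for 27 of the 35 (77.1%; 16 on replicate 1 and 11 on replicate 2), while this group held the highest array for 18.4% of all probe sets. For Igkv segments this was so for 13 of 15, for Ighm for 4 of 7 and for the probe sets with several symbols for 5 of 5. Summed linear intensities of the 35 were 4345 and 5147 in spleen KO, 8437 and 7555 in spleen HET, 2664 and 3050 in thymus KO, and 3675 and 3885 in thymus HET. The sums of the spleen HET arrays lay above those of all other arrays, and those of thymus KO below. Without the 2 Ighm probe sets that read over 9 on every array, the sums were 1357 and 1925 in spleen KO, 4304 and 3476 in spleen HET, 1086 and 1469 in thymus KO, and 1100 and 1677 in thymus HET, so that thymus KO no longer stood apart. In bulk RNA, fewer cells of a type and less RNA per cell cannot be told apart.

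**Figure D1:**
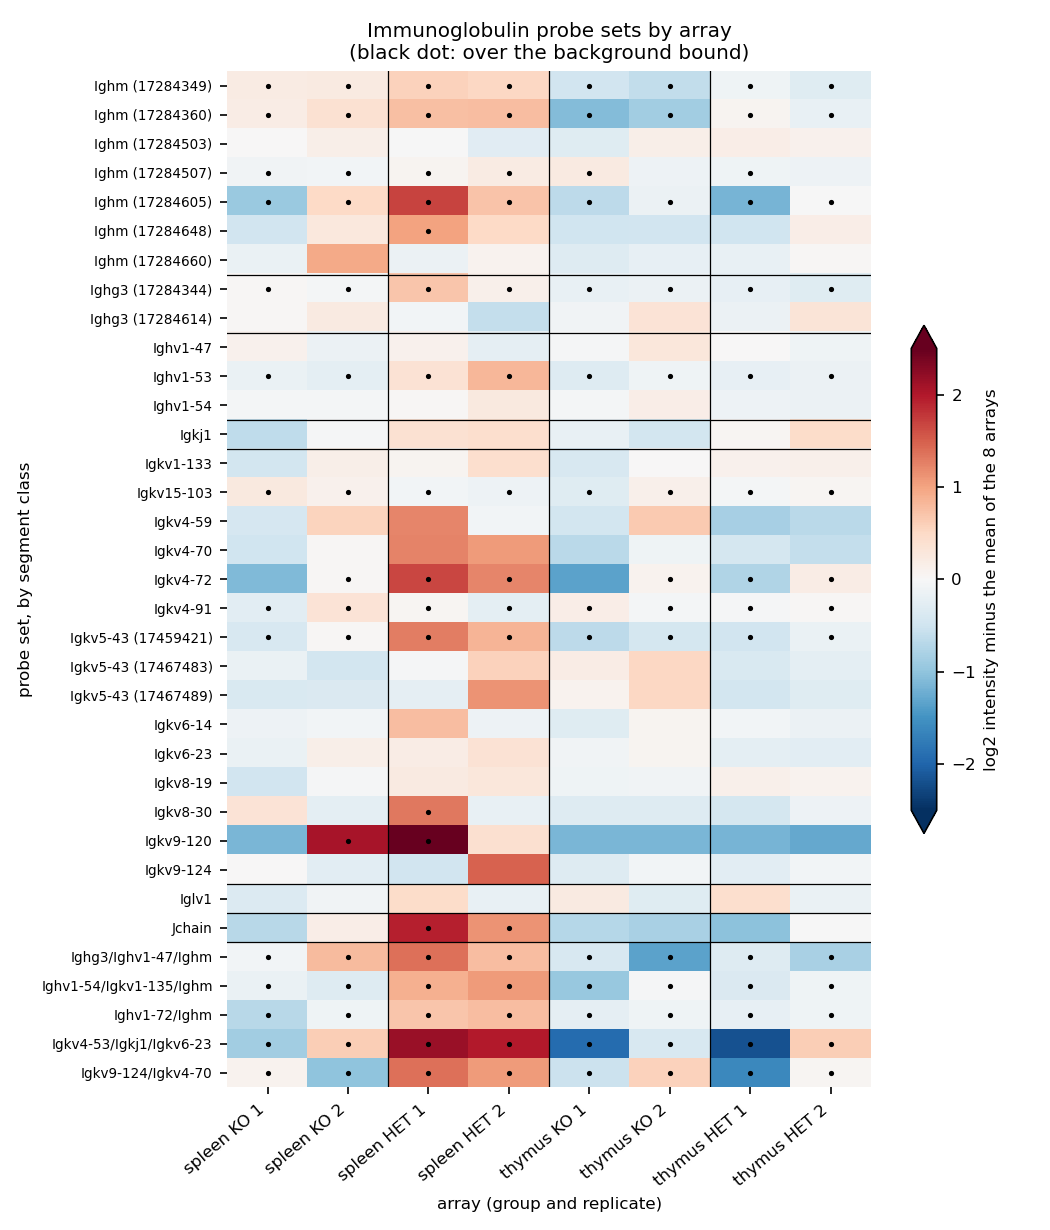
Log2 intensity of each of the 35 immunoglobulin probe sets (rows, by segment class) on each of the 8 arrays (columns), minus the row's mean over the 8 arrays; black dots mark values over the array's background bound. The spleen HET columns hold the highest value of 27 rows, and the 13 rows with a dot in every column were over the bound on all 8 arrays.

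Replicate arrays differed more for immunoglobulin probe sets than for others in 3 of the 4 groups. The median absolute difference between replicates was 0.43 over the 35 and 0.16 over all probe sets in spleen KO, 0.34 and 0.13 in spleen HET, 0.33 and 0.19 in thymus KO, and 0.16 and 0.18 in thymus HET. More than 1 log2 unit separated the replicates of 6 members in spleen KO, 5 in spleen HET, 4 in thymus KO and 4 in thymus HET, against 2.18%, 1.24%, 2.25% and 1.61% of all probe sets. The widest gaps reached 3.20 in spleen KO and 3.03 in spleen HET, both for Igkv9-120. This variable segment was at 2.33 and 5.53 in spleen KO, 6.92 and 3.89 in spleen HET, 2.33 and 2.33 in thymus KO, and 2.32 and 2.21 in thymus HET. It was thus over the bound on 1 array of each splenic group and on none of the thymic ones.

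With the model as fitted to all distinct probe sets, the members called in any comparison were 2 probe sets of the mu constant region Ighm. Other members passed only under alternative settings. The Ighm probe set 17284360 was at 10.43 and 10.63 in spleen KO, 11.01 and 11.02 in spleen HET, 9.17 and 9.39 in thymus KO, and 10.32 and 10.08 in thymus HET. Another, 17284349, was at 10.65 and 10.68 in spleen KO, 11.02 and 10.97 in spleen HET, 9.97 and 9.83 in thymus KO, and 10.34 and 10.14 in thymus HET. For both, the groups did not overlap and stood in the same order, with spleen HET on top, spleen KO next, then thymus HET and thymus KO at the bottom. Averaged over genotypes, splenic exceeded thymic Treg cells by 1.04 (95% confidence interval (CI) 0.79 to 1.28; limma, adjusted p = 0.00974) for 17284360 and by 0.76 (CI 0.55 to 0.96; adjusted p = 0.0150) for 17284349. These 2 were the members called in that comparison, in which 0.979% of all probe sets were called. With the mouse pool as a block, 17284360 kept its call (adjusted p = 0.0486) and 17284349 did not (adjusted p = 0.0690), with the pool as a random block Igkv5-43 passed too (adjusted p = 0.0467), and without either spleen HET array neither passed (0 calls).

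Within KO, 17284360 exceeded thymus in spleen by 1.25 (CI 0.91 to 1.60; adjusted p = 0.0424) and was the 1 member called, against 0.168% of all probe sets. The pool block took this call away (adjusted p = 0.163), as did leaving out any single array (adjusted p = 0.0816 to 0.195). Within HET the same probe set differed by 0.82 (CI 0.48 to 1.16; adjusted p = 0.149) and 17284349 by 0.75 (CI 0.46 to 1.04; adjusted p = 0.126), both short of the threshold. Between genotypes, KO minus HET was -0.92 in thymus (CI -1.26 to -0.58; adjusted p = 0.514) and -0.48 in spleen (CI -0.83 to -0.14) for 17284360, and -0.34 and -0.33 for 17284349. KO arrays thus lay below HET arrays in both organs for these 2 Ighm probe sets, without passing the test. On the thymus KO arrays, where both were lowest, the CD8 T cell marker Cd8a was highest, at 6.22 and 5.27 in thymus KO, against 4.39 and 4.57 in thymus HET, and at 4.06 and 4.15 in spleen KO, against 3.64 and 3.99 in spleen HET. Cd8a was 1 of 6 measured CD8 and NK cell markers, and the others did not follow it to this extent. KO minus HET in thymus was 1.27 for Cd8a, but 0.199 for Cd8b1 and 0.028 for Nkg7, which were also over the bound. Over the 6 the median was 0.09, with 4 higher and 2 lower in KO. The part of such cells in the Ighm differences was not tested.

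The other Ighm probe sets were not called. Probe set 17284605 was at 5.01 and 6.44 in spleen KO, 7.64 and 6.66 in spleen HET, 5.29 and 5.80 in thymus KO, and 4.78 and 5.94 in thymus HET. Spleen HET did not overlap with any other group here. Probe set 17284507 stayed between 4.63 and 4.97 on all arrays, near the bound, and 17284648 exceeded it on 1 array only, spleen HET replicate 1. The remaining 17284503 and 17284660 were under the bound on all 8 arrays. Of 2 Ighg3 probe sets, 17284344 was at 5.10 and 5.01 in spleen KO, 5.76 and 5.19 in spleen HET, 4.88 and 4.91 in thymus KO, and 4.84 and 4.76 in thymus HET. The other, 17284614, was under the bound on every array. The probe sets of 1 gene thus disagree, and a level is compared here only between arrays within a probe set.

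Heavy chain variable segments were represented by Ighv1-53, Ighv1-54 and Ighv1-47. Ighv1-53 was at 5.88 and 5.81 in spleen KO, 6.42 and 6.89 in spleen HET, 5.73 and 5.94 in thymus KO, and 5.86 and 5.90 in thymus HET. Both spleen HET arrays stood above the other 6, which lay within 5.73 to 5.94. The difference of KO minus HET in spleen was -0.81 (CI -1.22 to -0.40; adjusted p = 0.966), and that of spleen minus thymus was 0.77 in HET (CI 0.37 to 1.18; adjusted p = 0.251) and 0.01 in KO (CI -0.40 to 0.42). Ighv1-54 and Ighv1-47 were under the bound on all arrays.

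Igkv5-43, a kappa variable segment, was over the bound on all arrays with probe set 17459421. Its values were 7.68 and 8.10 in spleen KO, 9.37 and 8.93 in spleen HET, 7.42 and 7.64 in thymus KO, and 7.61 and 7.91 in thymus HET. Spleen HET stood apart from the other 3 groups, and thymus HET overlapped with spleen KO and thymus KO. KO minus HET was -1.26 in spleen (CI -1.77 to -0.76; adjusted p = 0.828) and -0.23 in thymus (CI -0.73 to 0.28; adjusted p = 0.985). Spleen minus thymus was 1.40 in HET (CI 0.89 to 1.90; adjusted p = 0.112) and 0.36 in KO (CI -0.15 to 0.86; adjusted p = 0.565). When 1 probe set was kept per gene (22179 probe sets), the splenic excess in HET passed (adjusted p = 0.00412). The genotype difference in spleen did not (adjusted p = 0.195). Why the outcome changed with this setting was not tested. The remaining 2 Igkv5-43 probe sets were under the bound on all arrays.

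Igkv4-72 was at 4.24 and 5.36 in spleen KO, 7.01 and 6.55 in spleen HET, 4.00 and 5.44 in thymus KO, and 4.60 and 5.52 in thymus HET. Here too spleen HET was apart. KO minus HET in spleen was -1.98 (CI -3.28 to -0.68; adjusted p = 0.999992). Spleen minus thymus in HET was 1.72 (CI 0.42 to 3.02; adjusted p = 0.442), so neither passed. Not all segments over the bound shared this pattern. Igkv4-91 was at 5.42 and 6.02 in spleen KO, 5.72 and 5.43 in spleen HET, 5.84 and 5.62 in thymus KO, and 5.66 and 5.71 in thymus HET, with all groups overlapping. Igkv15-103 was at 5.32 and 5.18 in spleen KO, 5.01 and 4.94 in spleen HET, 4.78 and 5.20 in thymus KO, and 5.03 and 5.13 in thymus HET, so that spleen HET was the lower splenic group.

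Other kappa segments were at or under the bound. Igkv8-30 exceeded it on 1 array, at 5.47 on spleen HET replicate 1 against 3.96 on replicate 2. Igkv4-70 was under it throughout, at 2.60 and 3.12 in spleen KO, 4.34 and 4.16 in spleen HET, 2.42 and 2.98 in thymus KO, and 2.65 and 2.51 in thymus HET. It had the smallest adjusted p of the 35 for spleen against thymus in HET (0.0853), but no fold is given for a probe set under the bound in both groups. Igkj1, the joining segment nearest to the variable segments, was likewise under the bound on all arrays, at 3.03 and 3.62 in spleen KO, 4.04 and 4.07 in spleen HET, 3.47 and 3.20 in thymus KO, and 3.70 and 4.11 in thymus HET. Igkv8-19 and the lambda segment Iglv1 were also under the bound throughout, Igkv8-19 between 2.97 and 3.72. Iglv1 lay between 3.05 and 3.86 on the 8 arrays.

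Jchain was over the bound in 1 group only. It was at 3.58 and 4.44 in spleen KO, 6.22 and 5.39 in spleen HET, 3.57 and 3.47 in thymus KO, and 3.24 and 4.27 in thymus HET. As the 6 arrays outside spleen HET did not exceed the bound, the difference of group means is given as a minimum. By the means, Jchain was at least 2.32-fold lower in spleen KO than in spleen HET. It was at least 2.23-fold higher in spleen HET than in thymus HET. Each fold sets the spleen HET mean (5.80) against the higher of the bound and the measured value. The 2 spleen HET arrays differed, and with the 99th percentile bound Jchain was over it in 0 groups. The fitted differences were -1.79 (CI -2.79 to -0.80; adjusted p = 0.999992) and 2.05 (CI 1.06 to 3.04; adjusted p = 0.214), neither past the threshold.

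**Figure D2:**
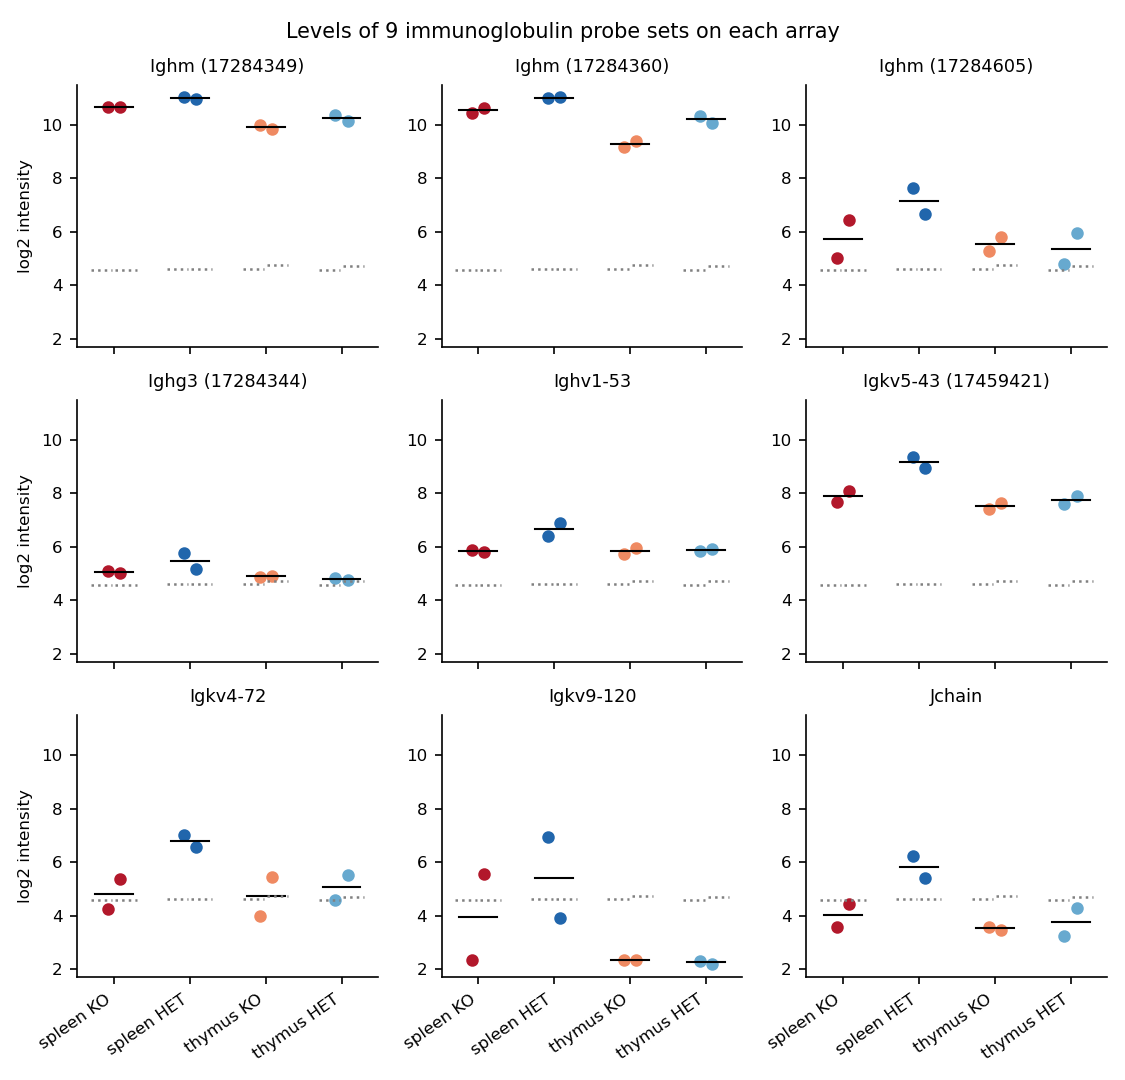
Log2 intensity (vertical axis) of 9 immunoglobulin probe sets in the 4 groups; points are single arrays, black lines group means (n = 2 arrays) and dotted grey lines each array's background bound. In the panels for Ighv1-53, Igkv5-43, Igkv4-72 and Jchain both spleen HET points stand above the other 6, and in the panels for Ighm 17284360 and 17284349 splenic points lie above thymic points in each genotype. Levels are to be compared between groups within a panel, not between panels.

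All 5 probe sets annotated with several immunoglobulin symbols were over the bound in every group, and each had its highest value on a spleen HET array. They match several genes, so no gene can be named for them. The one listing Igkv4-53, Igkj1 and Igkv6-23 was at 7.18 and 8.66 in spleen KO, 10.20 and 10.02 in spleen HET, 6.12 and 7.63 in thymus KO, and 5.86 and 8.66 in thymus HET. The one listing Igkv9-124 and Igkv4-70 was at 7.48 and 6.39 in spleen KO, 8.77 and 8.46 in spleen HET, 6.84 and 7.95 in thymus KO, and 5.77 and 7.43 in thymus HET. For both, the spleen HET replicates lay closer together than the thymus HET replicates did. Those listing Ighv1-54, Igkv1-135 and Ighm (7.45 and 7.30 in spleen KO, 8.52 and 8.68 in spleen HET) and Ighv1-72 and Ighm (5.43 and 6.01 in spleen KO, 6.81 and 6.89 in spleen HET) also had spleen HET above every other array. The one listing Ighg3, Ighv1-47 and Ighm was at 7.61 and 8.47 in spleen KO, 9.07 and 8.45 in spleen HET, 7.28 and 6.35 in thymus KO, and 7.37 and 6.87 in thymus HET, with the splenic groups overlapping.

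Whether loss of miR-181a/b-1 goes with a change of these transcripts in splenic Treg cells was addressed by KO minus HET in spleen. Of the 35 probe sets, 29 had a negative and 6 a positive difference, with a median of -0.52, against 0.01 over all probe sets, of which 47.9% were negative. None was called (0 of 35; 0.00987% of all probe sets were), with a smallest adjusted p of 0.820. At an unadjusted p under 0.05 there were 16 members, all lower in KO, while 1.83% of all probe sets were lower at this p. The KO arrays lay below both HET arrays for 21 members (16.4% of all probe sets) and above both for 3 (18.6%). By class, 13 of 15 Igkv, 5 of 7 Ighm, 2 of 3 Ighv and 5 of 5 probe sets with several symbols had a negative difference. Many of these were under the bound in both groups. Among the 15 members above the median level of all probe sets over the 8 arrays, 13 were negative, with a median of -0.81. Of these 15, 10 were lower at an unadjusted p under 0.05, against 1.89% of all probe sets above that level. The counts rest partly on single arrays: without spleen KO replicate 1, 8 members were lower at this p, and without spleen HET replicate 1, 25 differences were negative.

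In thymus the members were divided, with 21 negative and 14 positive differences of KO minus HET and a median of -0.04, against 0.00 over all probe sets, of which 50% were negative. No member was called (0.0074% of all probe sets were; smallest adjusted p of the 35, 0.514), and at an unadjusted p under 0.05 there were 3 lower (3.02% of all) and 1 higher (2.31%). The direction of the set rested on single arrays: without thymus KO replicate 1 there were 21 positive and 14 negative differences (median 0.07), and without thymus HET replicate 2 the counts were the same (median 0.05). The KO arrays lay below both HET arrays for 6 members (15.2% of all probe sets) and above both for 7 (15.2%). Averaged over the tissues, 26 were negative (48.1% of all) and 9 positive, 0 were called (0.0074% of all) and 12 were lower at that p (2.66% of all). Whether the genotype difference itself differs between the organs was tested as an interaction. It was negative for 28 members (48.1% of all), with a median of -0.51, 10 were lower at an unadjusted p under 0.05 (1.7% of all) and 0 were called (0% of all). Without thymus KO replicate 2 this count was 5, with 3 higher, without thymus HET replicate 1 it was 5 and without spleen KO replicate 1 it was 6, with 1 higher, while the median was -0.32 without spleen HET replicate 1.

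**Figure D3:**
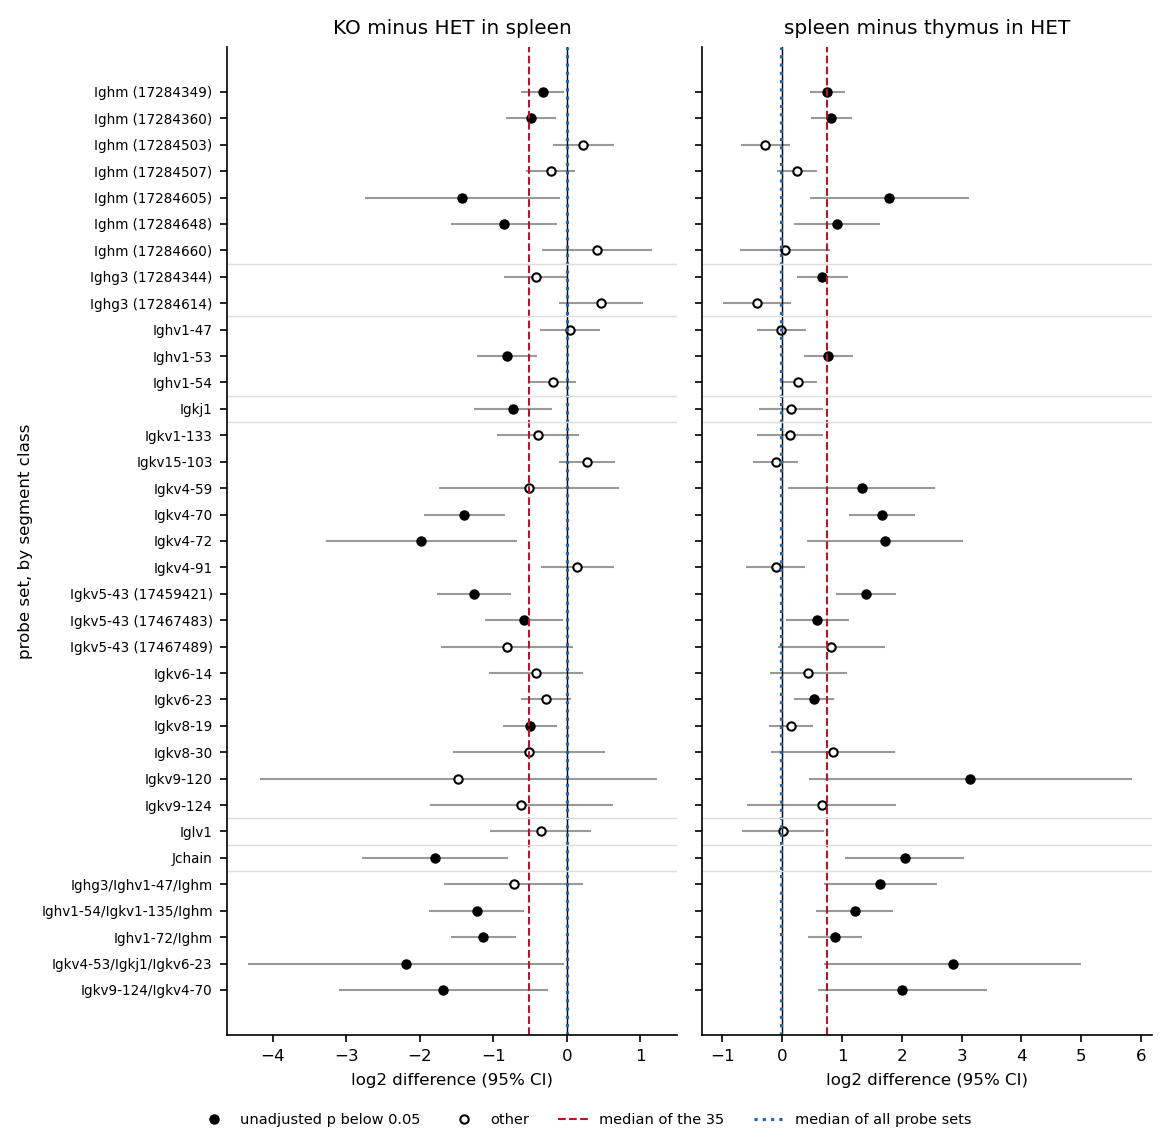
Log2 differences with 95% CI of the 35 immunoglobulin probe sets (rows, by segment class) for KO minus HET in spleen (left) and spleen minus thymus in HET (right); filled points had an unadjusted p under 0.05, the dashed line is the median of the 35 and the dotted line that of all probe sets. The medians of the 35 lie at -0.52 and 0.75, those of all probe sets near 0; both panels use the same 2 spleen HET arrays.

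Between the organs, most immunoglobulin values were higher in spleen among HET cells. In HET, spleen minus thymus was positive for 30 of the 35 (46.2% of all probe sets) and negative for 5, with a median of 0.75. None was called (0 of 35; 0.0444% of all probe sets were), although 19 were higher at an unadjusted p under 0.05 (4.45% of all), or 11 without thymus HET replicate 1. Spleen arrays lay above both thymus arrays for 23 (19.5% of all) and below for 2 (22.9%). With 1 probe set kept per gene, 266 of 22179 probe sets passed. Among them were 5 of 21 members: Igkv4-70, Igkv5-43, Jchain, Ighm and Ighv1-53 (adjusted p = 0.00288 to 0.0427). In KO the median was 0.08, with 23 positive (48.5% of all) and 12 negative differences. At an unadjusted p under 0.05, 3 members were higher (6.54% of all) and 1 was lower (5.22%), or 5 higher without spleen KO replicate 1. Single arrays turned the direction here too, with 16 positive and 19 negative differences (median -0.06) without thymus KO replicate 1, and 17 positive and 18 negative without spleen KO replicate 2. Spleen arrays lay above both thymus arrays for 9 (20.6% of all) and below for 3 (21.1%). Averaged over the genotypes, 28 were positive (45.8% of all), with a median of 0.37, and 15 were higher at that p (8.34% of all), or 9 when either spleen KO replicate 2 or thymus KO replicate 1 was left out. Both contrasts led by spleen HET, KO against HET in spleen and spleen against thymus in HET, use the same 2 arrays, so they are not independent of each other.

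T cell receptor variable and joining segments, the counterparts that T cells do rearrange, served for comparison. Their 17 probe sets had a median KO minus HET of -0.03 in spleen, with 0 called, and a median spleen minus thymus of 0.34 in HET and 0.46 in KO, with 0 called in either. The corresponding medians of the immunoglobulin set were 0.75 in HET and 0.08 in KO, and the difference between the sets was not tested.

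Markers of B cells and plasma cells were read beside these values, since such cells express immunoglobulin genes most. Of 16 measured B cell markers, 10 were under the bound on every array, among them Ms4a1 (CD20), at 3.58 and 3.54 in spleen KO and 3.39 and 3.22 in spleen HET, and Pax5, at 4.26 and 4.49 in spleen KO and 4.19 and 4.13 in spleen HET. Over the bound were 5: Cd79b, a chain of the B cell receptor, Bank1, Cd22, Pou2af1 and Fcmr. Cd79b was at 6.52 and 6.52 in spleen KO and 6.22 and 6.17 in spleen HET, so that both KO arrays lay above both HET arrays, by a mean difference of 0.33. Cd22, an inhibitory receptor of B cells, ran with the immunoglobulin set, at 4.83 and 4.76 in spleen KO, 5.02 and 5.31 in spleen HET, 4.60 and 4.35 in thymus KO, and 4.49 and 4.60 in thymus HET. Its difference was -0.37 for KO minus HET in spleen and 0.62 for spleen minus thymus in HET, and it was the 1 marker of the 16 at an unadjusted p under 0.05 in the first of these comparisons (0 called). The other chain, Cd79a, exceeded the bound on 1 array. Summed intensities of the 16 were 392 to 414 in spleen KO, 391 to 394 in spleen HET, 360 to 362 in thymus KO and 354 to 365 in thymus HET. KO minus HET in spleen ranged from -0.37 to 0.33 over the 16, with a median of -0.02. Spleen minus thymus in HET ranged from -0.40 to 0.62, with a median of -0.08. In that comparison the 5 markers over the bound were all higher in spleen: Cd22 by 0.62, Bank1 by 0.51, Fcmr by 0.26, Pou2af1 by 0.19 and Cd79b by 0.13. Of the 16, 2 were higher (Cd22 and Bank1) and 1 lower at an unadjusted p under 0.05 (limma, 0 called). KO minus HET in spleen was -0.02 for Bank1, -0.05 for Fcmr and -0.04 for Pou2af1.

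Of 10 plasma cell markers other than Jchain, 7 were over the bound in some group: Sdc1 (CD138), Mzb1, Derl3, Creld2, Txndc5, Slamf7 and Pou2af1. Tnfrsf17, the receptor BCMA, was under it on all arrays. Sdc1 was at 4.94 and 4.94 in spleen KO and 4.83 and 4.59 in spleen HET, and Mzb1, a chaperone of IgM assembly, at 5.19 and 5.08 in spleen KO and 5.21 and 5.23 in spleen HET. Their summed intensities were 511 to 555 in spleen KO, 504 to 530 in spleen HET, 419 to 475 in thymus KO and 454 to 491 in thymus HET. KO minus HET in spleen had a median of -0.03 over the 10 (range -0.22 to 0.23, 0 at an unadjusted p under 0.05), and spleen minus thymus in HET a median of -0.14 (range -0.31 to 1.52). The highest of these was Slamf7, a surface receptor that T cells also carry. Markers under the bound can show little difference, a limit that does not concern the 7 plasma cell and 5 B cell markers over it. The part of B cells and plasma cells in the immunoglobulin values was not tested. Xbp1, Prdm1 and Irf4, plasma cell regulators that effector Treg cells also use, differed between KO and HET spleen by 0.16, -0.15 and 0.13.

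**Figure D4:**
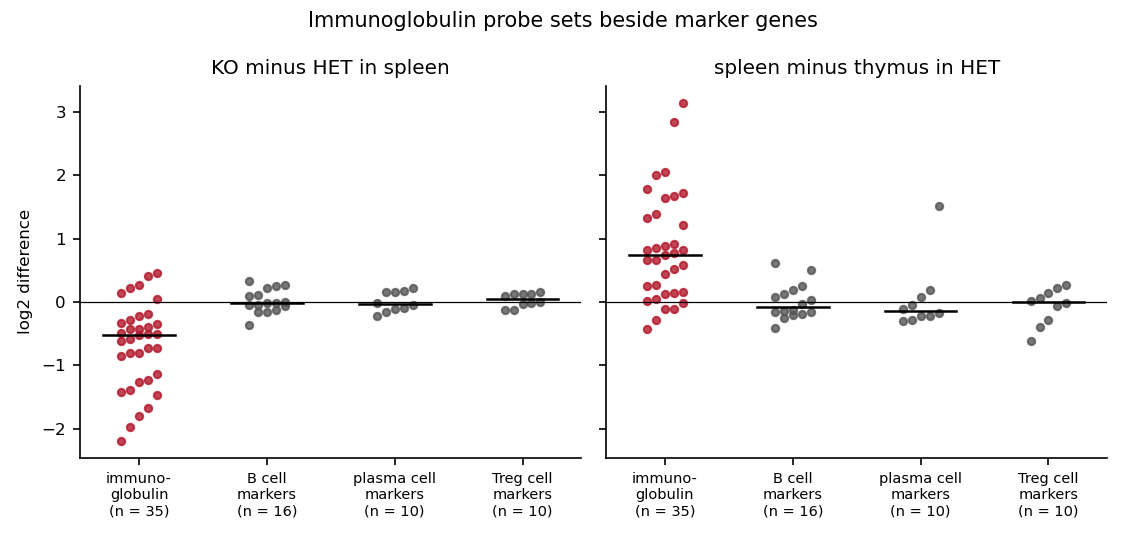
Log2 differences (vertical axis) of the 35 immunoglobulin probe sets, 16 B cell markers, 10 plasma cell markers other than Jchain and 10 Treg cell markers, for KO minus HET in spleen (left) and spleen minus thymus in HET (right); points are probe sets and black lines medians. The immunoglobulin medians are -0.52 and 0.75, while the B cell marker medians are -0.02 and -0.08. Of the 16 B cell markers, 10 were under the background bound on every array.

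Genes of B cell receptor signalling and of the secretory machinery that folds and exports antibody were examined in the same way. Of 22 measured, 14 had a negative and 8 a positive KO minus HET difference in spleen, with a median of -0.03, 0 called and 0 at an unadjusted p under 0.05. The 14 over the bound in some group were Cd79b, Cd81, Plcg2, Pigr, Mzb1, Hsp90b1, Hspa5, Pdia6, Dnajb9, Sec61a1, Ssr4, Edem1, Herpud1 and Erp44. Hspa5, an endoplasmic reticulum chaperone, differed by -0.08, Hsp90b1 by -0.05 and Sec61a1, a subunit of the translocation channel, by 0.10. Early B cell genes were close to background, with Vpreb2 and Dntt over the bound among 5 measured. Dntt, the polymerase that adds bases at rearranging segments in B and T cell precursors, was at 3.81 and 3.80 in spleen KO and 3.88 and 3.91 in spleen HET, against 4.62 and 4.59 in thymus KO and 5.20 and 4.84 in thymus HET. Of 10 myeloid markers, Csf1r and Cd68 were over the bound, and their list had a median KO minus HET difference of 0.05 in spleen. Of 4 class II histocompatibility genes measured, H2-Eb1 and Ciita were over it, with a list median of 0.03. Nkg7, Cd8b1 and Cd8a were over it among 6 CD8 and NK cell markers (list median 0.02), and Car2 among 2 erythroid ones (list median 0.29). The part of these cells was not tested either.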

How the data were processed

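RNA was hybridised to Affymetrix arrays. The authors deposited a table of log2 intensities of 41345 probe sets. Their processing notes name oligo, with the version and summarisation not given in the sources used here. The array design in the study's methods is not that of the deposited identifiers, which were followed. Probe sets with identical values on all 8 arrays (1398 share their values) were counted once; no member was concerned. No further normalization was applied. Genes were named from the platform annotation; all 24 symbols matched RefSeq.

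In limma 3.58.1 (R 4.3.3), 1 linear model with 4 group means (4 residual degrees of freedom) was fitted to all 40541 distinct probe sets, with eBayes, 7 contrasts and two-sided p-values adjusted by Benjamini-Hochberg over all probe sets of a contrast (threshold 0.05). With 2 arrays per group that may share technical spread, p-values measure only the spread between these arrays. The code was tested on simulated data. "At least" folds set the brighter mean against the higher of bound and measured value on each array of the dimmer group.

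Spleen and thymus arrays of 1 pool come from the same mice, so the pool pairs them. The deviations of paired arrays from their group means correlated at -0.031 in KO and 0.089 in HET over all probe sets. Over the members alone these correlations were 0.007 and -0.04. Arrays that share only the number correlated over the members at 0.633 between thymus KO and thymus HET (0.115 over all probe sets). Between spleen KO and spleen HET this was -0.54 (-0.093 over all). Why was not tested.

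Named were all constant region, joining and Jchain probe sets, variable segments by level, by call or by the smallest p among those over the bound, probe sets with several symbols, and markers over the bound; Igkv4-70, Iglv1, Ighv1-54, Ighv1-47 and the dim markers were named after their values were seen. Members and lists were chosen with earlier results of these data known. Alternatives were quantile normalization, a level filter, eBayes with trend and robust spread, 1 probe set per gene, all probe sets, array weights, blocks for replicate number or pool, leaving out each array, and a 99th percentile bound.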

Additional observations from a re-analysis of the deposited data

How the results depend on the processing

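With 2 arrays per group, 1 array can decide a call. The genotype comparisons in spleen, in thymus and averaged, and the interaction, had 0 of 35 members called under the main setting and under every alternative. For spleen against thymus in KO, 1 member was called; the count was 0 with quantile normalization, with array weights, with the replicate number as a replicate block and with the mouse pool as a replicate block, 2 with eBayes trend and robust spread, and 0 to 0 when each array was left out. For spleen against thymus in HET, 0 were called, and 5 with 1 probe set per gene, where 266 of 22179 probe sets were called. Averaged over genotypes, 2 were called, 4 without probe sets at or below the median level, 4 with eBayes trend and robust spread, 4 with 1 probe set per gene, and 0 to 2 when each array was left out (0 without spleen HET replicate 1 or 2; 1 without spleen KO replicate 1, spleen KO replicate 2 or thymus HET replicate 2). In the paired analysis with the mouse pool as a block this count stayed at 2, but Igkv4-70 (adjusted p = 0.0486) took the place of Ighm 17284349. With the pool as a random block it was 3, with Igkv5-43 added (adjusted p = 0.0467). The blocks changed no other count of calls. The averaged comparison called 397 of 40541 probe sets under the main setting and 790 of 20270 with the level filter. It called 563 of 40541 with trend and robust spread and 1204 of 22179 with 1 probe set per gene. With the 99th percentile bound, 7 members instead of 14 were over background in spleen KO, 7 instead of 13 in thymus KO and 5 instead of 14 in thymus HET. Single differences were recomputed for 48 pairs of a member and a contrast. These had an unadjusted p under 0.05 in the main limma fit and were over the bound in a group compared. Chosen so from the same data, they were unlikely to change sign. Each pair was set against the main setting once per alternative. Of these comparisons, 732 stayed on the same side of the threshold. In 13 the alternative passed and the main setting did not, in 21 the reverse held, and 0 changed sign. Why was not tested. Signal limits what can be compared, since 16 members were under the bound on every array.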
